A study of Mus musculus with 12 samples.

Results

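The response of wild-type peritoneal macrophages to lipopolysaccharide (LPS) was read from 6 RNA-seq libraries, 3 of wild-type cells after 3 h (WT 3 h) and 3 of wild-type cells at 0 h (WT 0 h). Sample titles put these 6 libraries in their groups, out of 12 in the series. The other 6 libraries, 3 at 3 h (MKO 3 h) and 3 at 0 h (MKO 0 h), came from mice in which Usp5 was knocked out in myeloid cells. Usp5 encodes a deubiquitinase that takes apart free polyubiquitin chains. In the wild-type groups it was at 108 CPM in WT 3 h and 111 CPM in WT 0 h, and in the knockout groups at 27.6 CPM in MKO 3 h and 29.7 CPM in MKO 0 h. No engineered allele is named for the WT mice. The Cre driver of the knockout, the strain, sex and age of the mice, the LPS dose and the way the cells were collected are not stated in the labels. A treatment field names LPS for every sample, 0 h included, while the design text of the series speaks of mock cells, so 0 h is read as the unstimulated state. Whether the 3 replicates of a group are separate animals or cultures is not stated, so each p-value speaks of the scatter among these libraries, and that scatter may be technical.

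LPS, a glycolipid of the outer membrane of Gram-negative bacteria, is handed by the surface protein CD14 to Toll-like receptor 4. Adaptors of the MyD88 and TRIF branches then switch on IkB kinases, MAP kinases and interferon regulatory factors, and NF-kB and AP-1 factors bind the promoters and enhancers of inflammatory genes. Macrophages are known for a first wave of transcripts in this response, many of them unstable, which encode cytokines, chemokines and the inhibitors that later turn the pathway down.

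Macrophage markers were abundant in all 6 libraries. The summed level of 9 markers was 11555 to 11875 CPM in WT 3 h and 10427 to 10841 CPM in WT 0 h, with Adgre1, which encodes F4/80, at 3019 CPM in WT 3 h and 3072 CPM in WT 0 h. Of 10 genes known to mark large resident peritoneal macrophages, Gata6, Timd4, Vsig4 and Cxcl13 had at most 5 counts over the 6 libraries, and the sum of the list was 24.7 to 27.2 CPM in WT 3 h and 21.9 to 28.4 CPM in WT 0 h. The 8 markers of small peritoneal or monocyte-derived macrophages summed to 1486.2 to 1604.5 CPM in WT 3 h and 1434.2 to 1666.7 CPM in WT 0 h. Lyz2, often used as a macrophage marker, was also low, at 39.9 CPM in WT 3 h and 21.4 CPM in WT 0 h. Markers of B cells summed to 15.7 to 19.4 CPM in WT 3 h and 18.1 to 20.4 CPM in WT 0 h, those of T and NK cells to 8.50 to 10.6 CPM in WT 3 h and 8.89 to 11.2 CPM in WT 0 h, and those of neutrophils to 226 to 273 CPM in WT 3 h and 177 to 270 CPM in WT 0 h, with overlapping ranges. Like the macrophage markers, those of dendritic cells (18.1 to 19.1 CPM in WT 3 h and 10.1 to 15.4 CPM in WT 0 h), mast cells (4.01 to 4.70 CPM in WT 3 h and 2.99 to 3.48 CPM in WT 0 h) and erythroid cells and platelets (161 to 175 CPM in WT 3 h and 116 to 147 CPM in WT 0 h) were higher in WT 3 h with no overlap. In each of these sums a single gene gained the most counts. For macrophages it was Cd14, itself induced by LPS, with 67990 counts over WT 3 h and 14833 over WT 0 h. For dendritic cells it was Xcr1 (172 in WT 3 h and 41 in WT 0 h). For mast cells it was Kit (142 in WT 3 h and 81 in WT 0 h), and for erythroid cells and platelets Pf4 (7221 in WT 3 h and 5361 in WT 0 h). The part of these marker levels in the results was not tested. Total counts were 17854394 to 20563698 in WT 3 h and 15412190 to 16983864 in WT 0 h, so that 1 count was worth 0.0560 to 0.0647 CPM, read counts scaled to a common library size by TMM. The first principal component of the 6 libraries held 73.8% of the variance and separated WT 3 h from WT 0 h. Replicate 3 of WT 0 h stood apart from replicates 1 and 2 on the second component, which held 9.23%. Per degree of freedom, its counts differed from theirs with a chi-square of 14.8 and 17.4, against 1.93 between replicates 1 and 2, where 1 would be counting noise.

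The promoters and 3′ UTRs of a few of the strongest responders are shown to give their values a sequence context. Of the 12455 genes tested, 7530 had a single entry in RefSeq's promoter table (build GRCm38.p6). Below are 150 bases of 6 promoters, from 130 bases before the annotated start to 20 bases from it on, in the direction of transcription. Capitals mark a kB consensus, the DNA element bound by NF-kB dimers, in the first 5, and the TATAAA letters of a TATA box in the sixth. The promoters shown were picked for holding a marked match. No kB consensus was found in those of Ptgs2, Il1a, Il1b, Il12b, Edn1, Acod1 and Ccl3, which also rose. The kB matches began at -71 in Cxcl1, -97 in Cxcl2, -116 in Ifnb1, -44 in Il6 and -29 in Nfkbia, and the TATAAA letters at -29 in Tnf, counted from the start. They lie at chr5:90891115-90891264 on the plus strand (Cxcl1), chr5:90903769-90903918 on the plus strand (Cxcl2), chr4:88522775-88522924 on the minus strand (Ifnb1), chr5:30012984-30013133 on the plus strand (Il6), chr12:55492628-55492777 on the minus strand (Nfkbia) and chr17:35201988-35202137 on the minus strand (Tnf).
Cxcl1: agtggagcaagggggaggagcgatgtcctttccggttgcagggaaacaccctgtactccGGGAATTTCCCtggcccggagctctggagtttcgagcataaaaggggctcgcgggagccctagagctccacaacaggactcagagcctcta
Cxcl2: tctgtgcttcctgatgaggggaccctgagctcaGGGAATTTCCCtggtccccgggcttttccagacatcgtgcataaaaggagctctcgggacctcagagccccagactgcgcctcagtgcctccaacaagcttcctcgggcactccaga
Ifnb1: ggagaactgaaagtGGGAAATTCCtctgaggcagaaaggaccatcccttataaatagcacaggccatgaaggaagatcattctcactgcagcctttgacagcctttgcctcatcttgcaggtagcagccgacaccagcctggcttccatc
Il6: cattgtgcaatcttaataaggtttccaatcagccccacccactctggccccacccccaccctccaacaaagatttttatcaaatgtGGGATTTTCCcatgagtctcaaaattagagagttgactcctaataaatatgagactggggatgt
Nfkbia: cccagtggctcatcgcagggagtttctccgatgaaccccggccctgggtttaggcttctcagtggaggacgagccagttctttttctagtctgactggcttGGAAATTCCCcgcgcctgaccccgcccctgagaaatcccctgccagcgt
Tnf: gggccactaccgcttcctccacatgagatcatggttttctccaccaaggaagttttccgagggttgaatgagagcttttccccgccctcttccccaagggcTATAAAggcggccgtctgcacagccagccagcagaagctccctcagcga

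A kB consensus, searched on both strands of the 300 bases of each entry, was present in 8.01% of 22862 promoters of the whole RefSeq table and in 9.97% of those of the genes tested. The 3′ UTRs of many early transcripts hold AU-rich elements, to which decay factors such as tristetraprolin bind. The 30 bases around the first TTATTTATT nonamer, a core of these elements, are given for 4 responders picked for holding one. Every ATTTA is in capitals. The 3′ UTRs of Il6, Il1b, Il1a, Ifnb1, Csf3, Nfkbiz, Ccl3, Ccl4 and Egr1, which also rose, held no such nonamer, though each held ATTTA pentamers. The stability of the transcripts was not measured. The Tnf 3′ UTR held 5 such nonamers and 8 ATTTA pentamers, that of Cxcl2 held 4 and 11, that of Csf2 held 4 and 9, and that of Ptgs2 held 1 and 14. The first nonamer began at base 438 of the 3′ UTR in Tnf (chromosome 17), 122 in Cxcl2 (chromosome 5), 241 in Csf2 (chromosome 11) and 18 in Ptgs2 (chromosome 1).
Tnf: tgcacttattATTTAttATTTATTTAttat
Cxcl2: gagttcacttATTTATTTAtctatgtattt
Csf2: ttaaatATTTATTTATTTATTTATTTAttt
Ptgs2: gaccatATTTATTTATTTAtgtgaagaatt

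Of 12455 genes tested, 4042 (32.5%) were called at an adjusted p under 0.05 in edgeR's quasi-likelihood test, 2219 (17.8%) of them higher and 1823 (14.6%) lower after 3 h of LPS. Most changes were small. By at least 2-fold, 642 genes (5.15%) rose and 420 (3.37%) fell, and by at least 4-fold, 309 (2.48%) rose and 86 (0.69%) fell. By at least 16-fold, 81 genes (0.65%) rose and 5 (0.0401%) fell. The 3 values of a group lay wholly above or below those of the other in 5683 genes (45.6%). The split between higher and lower depends on scaling. With library size only, 1208 genes were higher and 5209 lower, and the median log2 fold change of all genes was -0.23, against 0.00 with TMM. Changes are therefore given relative to the TMM scaling, and where library size only moves the higher share of a list's calls by over 10 percentage points, its counts stand in the same sentence. With replicate 3 left out of both 0 h groups 5841 genes were called, and with replicates 1 and 2 added together in every group 2585 were. In bulk RNA, fewer cells that express a gene and less of its RNA per cell cannot be told apart.

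The induced transcripts took up a large share of the library. Genes that rose by at least 4-fold held 6.73 to 6.76% of all counts in WT 3 h and 0.830 to 0.842% in WT 0 h. Genes that fell by at least 2-fold held 0.143 to 0.147% in WT 3 h and 0.431 to 0.454% in WT 0 h, so the falling genes were on the whole scarce ones. By TPM, the authors' length-normalized transcript values, 4 of the 25 most abundant genes in WT 3 h had risen by at least 4-fold. These were the chemokine genes Ccl3 and Ccl4, Tnf, and Acod1, whose product makes itaconate. Ccl3 reached 5323 ± 51.9 TPM in WT 3 h and 209.7 ± 10.3 TPM in WT 0 h, and Tnf reached 4705 ± 85.8 TPM in WT 3 h and 58.00 ± 1.23 TPM in WT 0 h (SD, n = 3 each). Their ranks by TPM were 16 and 19 in WT 3 h, against 707 and 2418 in WT 0 h.

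**Figure D1:**
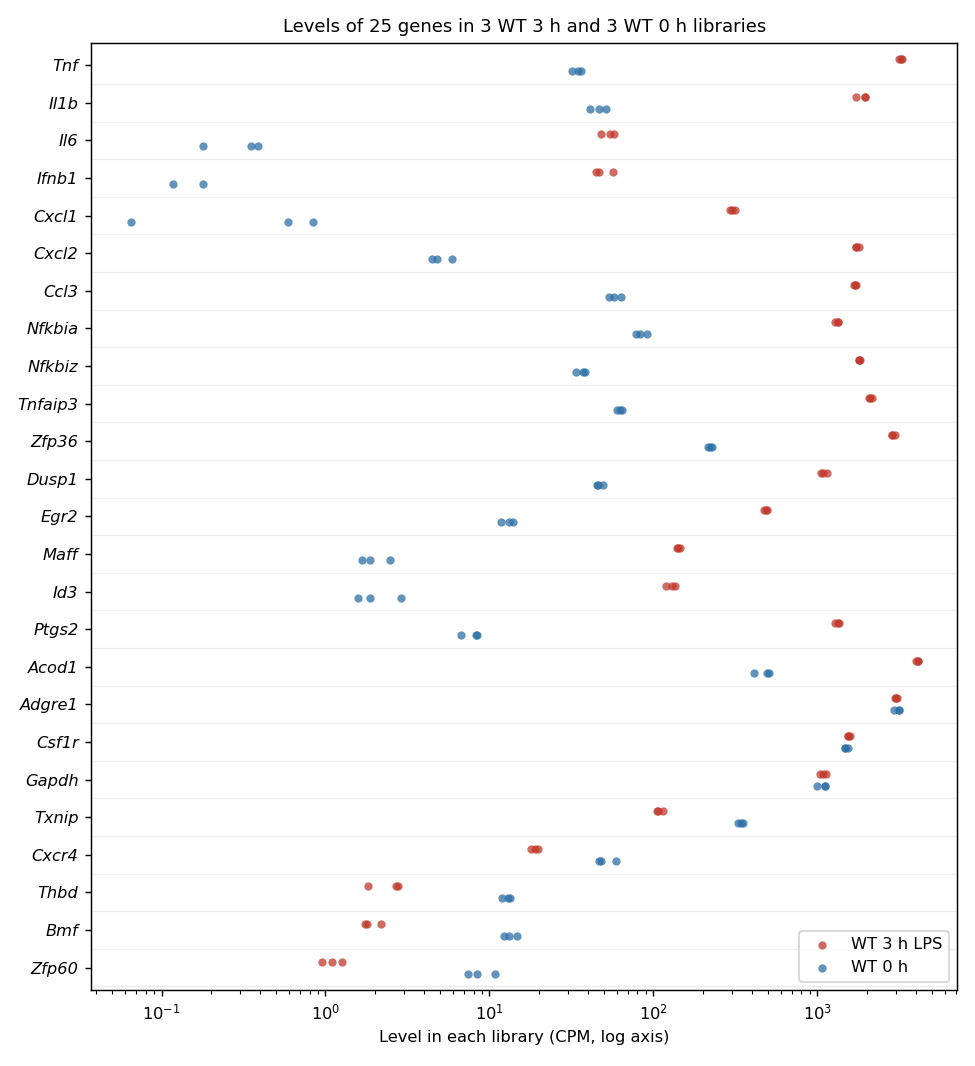
Level of 25 genes in each WT 3 h (red, 3 libraries) and WT 0 h (blue, 3 libraries) sample in CPM on a log axis, 1 point per library; the 1 WT 0 h library with no Ifnb1 count is not drawn. From Tnf down to Acod1 every red point lies above the blue ones, Adgre1, Csf1r and Gapdh lie close together, and from Txnip down to Zfp60 every red point lies below the blue ones.

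At the receptor, the co-receptor and inhibitors rose while the receptor and some adaptors fell. Of 28 tested members of the LPS receptor complex and its adaptors, 16 were higher and 5 lower, with a median log2 fold change of 0.25, while 11 were higher and 7 lower with scaling by library size only. Without replicate 3 of WT 3 h, 3 were lower. Cd14 was at 1419, 1416 and 1309 CPM in WT 3 h, against 309, 314 and 283 CPM in WT 0 h. All values of WT 3 h were above those of WT 0 h, with a log2 fold change of 2.19 (SE 0.07) and an edgeR adjusted p of 2.24e-12. Irak2, a kinase that prolongs MyD88 signalling, rose by 1.51 log2 units (SE 0.06), and Irak3, the kinase-dead inhibitor IRAK-M, by 0.58 (SE 0.07). Tlr4 itself was at 121, 117 and 117 CPM in WT 3 h, against 156, 156 and 155 CPM in WT 0 h. Its log2 fold change was -0.40 (SE 0.09), with an edgeR adjusted p of 0.00234. Tirap, which brings MyD88 to the receptor, and Tab1, a partner of the kinase TAK1, also fell, with log2 fold changes of -1.02 (SE 0.11) and -1.25 (SE 0.12). Ly96, which encodes MD-2, was not called (18.05 CPM in WT 3 h and 19.1 CPM in WT 0 h). Ticam1, the TRIF gene, rose by 0.78 log2 units (SE 0.08), and Myd88 by 0.29 (SE 0.07), a call that was lost with library size only.

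Sensors other than the LPS receptor rose with wide differences in size. Of 25 tested receptors, 15 were higher and 2 lower (median 0.35), while 12 were higher and 7 lower with scaling by library size only. Clec4e, the Mincle receptor for mycobacterial glycolipids, was at 1446, 1429.6 and 1439.7 CPM in WT 3 h, against 101, 103 and 83.5 CPM in WT 0 h, a log2 fold change of 3.91 (SE 0.08). Nlrp3, the sensor of the inflammasome that matures interleukin-1β, was at 852 CPM in WT 3 h and 57.4 CPM in WT 0 h, a rise of 3.89 log2 units (SE 0.08). Tlr2, the receptor for bacterial lipoproteins, rose by 2.95 log2 units (SE 0.06), and Nod2, for muramyl dipeptide, by 2.35 (SE 0.11). Tlr5, the flagellin receptor, fell by 1.83 log2 units (SE 0.49). Among the 20 inflammasome and pyroptosis genes 7 rose and 2 fell, while 7 were higher and 8 lower with scaling by library size only. Casp1, Gsdmd and Il18 were not called (log2 fold changes 0.04, 0.06 and 0.27). Without replicate 2 of WT 0 h, Il18 was called, at 0.33.

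Every tested gene of the NF-kB and IkB list was higher, 11 of 11 with a median of 2.28, under both scalings. Nfkbiz, which encodes the nuclear cofactor IkBζ, rose most and was at 1832, 1793 and 1802 CPM in WT 3 h, against 38.5, 37.5 and 33.8 CPM in WT 0 h. Its log2 fold change was 5.63 (SE 0.08) with no overlap between groups (edgeR adjusted p = 8.61e-16). Nfkbia, whose promoter is shown above, was at 1334, 1333 and 1281 CPM in WT 3 h, against 83.4, 90.95 and 77.96 CPM in WT 0 h, a rise of 3.97 log2 units (SE 0.07) for the classical inhibitor IkBα. Nfkbie, Nfkbid and Nfkbib, which encode other IkB proteins, rose by 3.47 log2 units (SE 0.06), 3.06 (SE 0.12) and 2.28 (SE 0.11). Of the subunits, Rel rose most, by 2.89 log2 units (SE 0.12), followed by Nfkb2 with 1.71 (SE 0.06), Relb with 1.52 (SE 0.07), Rela with 1.30 (SE 0.07) and Nfkb1 with 1.28 (SE 0.10). Nfkb1 and Rela differed by less than 1 SE. Bcl3 rose least, by 0.60 log2 units (SE 0.06).

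Genes that edit ubiquitin chains or otherwise damp the pathway rose or were not called. Of 24 tested, 16 rose and none fell (median 0.98), while 13 were higher and 4 lower with scaling by library size only. Tnfaip3, the gene of the ubiquitin editor A20, was at 2086, 2074 and 2146 CPM in WT 3 h, against 62.4, 59.9 and 64.1 CPM in WT 0 h, a log2 fold change of 5.08 (SE 0.10). Traf1, an adaptor of TNF receptors, rose by 3.78 log2 units (SE 0.07), Tnip3, an A20-binding inhibitor, by 1.82 (SE 0.06), and Birc3, the ubiquitin ligase cIAP2, by 1.56 (SE 0.06). Peli1, a ubiquitin ligase that acts on IRAK proteins, rose by 1.99 log2 units (SE 0.06). Rnf31, Rbck1 and Sharpin, which encode the ligase complex that makes linear ubiquitin chains, and Otulin and Cyld, which encode enzymes that cut them, were not called. Their log2 fold changes lay between -0.19 and 0.14.

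MAP kinase phosphatases and Sprouty genes, which restrain ERK, JNK and p38, rose in 12 of 16 members and fell in 2, with a median log2 fold change of 2.99. Dusp1, a nuclear phosphatase for p38 and JNK, was at 1086, 1059 and 1147 CPM in WT 3 h, against 45.6, 45.7 and 49.4 CPM in WT 0 h. The groups did not overlap, and the log2 fold change was 4.55 (SE 0.08) (edgeR adjusted p = 3.38e-15). Dusp8 rose by 5.16 log2 units (SE 0.21), Dusp5 by 4.99 (SE 0.14), Dusp2 by 4.91 (SE 0.09), Dusp4 by 3.51 (SE 0.15) and Dusp16 by 2.47 (SE 0.12). Dusp6, a cytoplasmic phosphatase for ERK, was at 13.9, 15.6 and 16.6 CPM in WT 3 h, against 32.4, 33.4 and 26.5 CPM in WT 0 h, a log2 fold change of -0.998 (SE 0.10). Errfi1, which inhibits EGF receptors, rose by 4.52 log2 units (SE 0.15). Spry1 was at 5.95, 3.54 and 3.64 CPM in WT 3 h, against 0.129, 0.117 and 0 CPM in WT 0 h, and 24.4% of its exon bases also lie in the gene Gm42922.

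Regulators of mRNA decay rose in 12 of 22 members and fell in 1 (median 0.25), while 8 were higher and 3 lower with scaling by library size only. Zfp36, the gene of tristetraprolin, which binds the AU-rich elements shown above, was at 2962, 2866 and 2868 CPM in WT 3 h, against 227, 215 and 222 CPM in WT 0 h. It was among the 10 largest gains in CPM, with a log2 fold change of 3.71 (SE 0.06). Zc3h12c and Zc3h12a, which encode endonucleases of the Regnase family, rose by 3.65 log2 units (SE 0.18) and 2.54 (SE 0.08), and the deadenylation cofactor genes Btg2, Btg1 and Tob1 by 2.64 (SE 0.07), 2.07 (SE 0.05) and 0.96 (SE 0.12). Zfp36l1 rose by 1.91 log2 units (SE 0.11), though 55.9% of its exon bases are shared with Gm26669. Zfp36l2 was not called (160.2, 167 and 186 CPM in WT 3 h, against 154, 158 and 318 CPM in WT 0 h). Its groups overlapped.

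Of the SOCS and related inhibitors of cytokine signalling, 6 of 16 were higher and 2 lower (median 0.14), while 5 were higher and 7 lower with scaling by library size only. Socs3, the inhibitor of interleukin-6 receptor signalling, was at 1100.4, 1143 and 1102 CPM in WT 3 h, against 79.4, 83.03 and 94.7 CPM in WT 0 h, a log2 fold change of 3.70 (SE 0.07). Cish, a STAT5 target and inhibitor, rose by 3.08 log2 units (SE 0.17). Socs1, which blocks JAK kinases, went the other way, at 9.46, 9.27 and 9.47 CPM in WT 3 h, against 13.8, 11.98 and 15.2 CPM in WT 0 h. Its log2 fold change was -0.54 (SE 0.12), with an edgeR adjusted p of 0.00331 and no overlap between groups. Socs6 was lower too, with a log2 fold change of -0.90 (SE 0.08).

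The genes of a list of immediate early and other inducible factors rose almost throughout. Many immediate early genes need no new protein to be transcribed. Because the list holds genes known to be inducible and was drawn up with earlier results of these data known, its count is a description. Of 50 tested, 43 rose and 3 fell (median 1.72). Id3, an inhibitor of helix-loop-helix factors, was at 129.9, 135 and 120.0 CPM in WT 3 h, against 1.88, 1.59 and 2.88 CPM in WT 0 h, a log2 fold change of 5.92 (SE 0.14). Egr2 rose by 5.22 log2 units (SE 0.09), Csrnp1 by 4.74 (SE 0.08), Egr1 by 4.51 (SE 0.15), and Nr4a1, an orphan nuclear receptor gene, by 4.55 (SE 0.22). Egr1 was at 585, 575 and 712 CPM in WT 3 h, against 25.2, 25.7 and 30.99 CPM in WT 0 h. Myc was at 50.5 CPM in WT 3 h and 5.53 CPM in WT 0 h, a rise of 3.19 log2 units (SE 0.08). The Krüppel-like genes Klf6, Klf2 and Klf4 rose by 2.02 log2 units (SE 0.07), 1.70 (SE 0.10) and 1.36 (SE 0.16), and the stress genes Gadd45b and Gadd45a by 2.47 (SE 0.10) and 2.07 (SE 0.08). Ier5l fell by 1.98 log2 units (SE 0.43).

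Among AP-1 and ATF/CREB genes 20 of 30 rose and 2 fell (median 0.67), while 17 were higher and 5 lower with scaling by library size only. Maff, a small leucine zipper factor, rose most and was at 141, 139 and 145 CPM in WT 3 h, against 1.68, 1.88 and 2.46 CPM in WT 0 h, a log2 fold change of 6.13 (SE 0.11). Fosb rose by 5.09 log2 units (SE 0.33) from a very low level (7.83 CPM in WT 3 h and 0.222 CPM in WT 0 h). Junb rose by 2.96 log2 units (SE 0.06), Fosl2 by 2.58 (SE 0.18), Cebpb by 1.37 (SE 0.08) and Atf3, a repressor of cytokine genes, by 1.01 (SE 0.07). Fos and Jun, the founding members of AP-1, rose by 0.95 log2 units (SE 0.09) and 0.63 (SE 0.06). Cebpa, a lineage factor of myeloid cells, was lower, with a log2 fold change of -0.67 (SE 0.16). Of the exon bases of Cebpb, 20.7% are shared with another gene.

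The cytokine ligands rose strongly. Of 25 tested, 20 rose and 1 fell, with a median log2 fold change of 3.59, the highest of the lists in the plot of called shares. The list holds 38 genes, and those not tested had too few counts for the filter. A gene silent at 0 h could pass that filter through its 3 h libraries alone. The share and the median are therefore a description. Csf3, the gene of the granulocyte growth factor G-CSF, was at 5.33, 6.57 and 6.44 CPM in WT 3 h, against 0, 0 and 0 CPM in WT 0 h. With no count in WT 0 h, it was at least 100.3-fold higher in WT 3 h, against a floor of 3 counts over the group. Csf2, the GM-CSF gene, had 2 counts over WT 0 h, and its ratio was 88.2 with a 95% counting interval of 24.1 to 734. Such ratios and floors cover counting error only.

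Interleukin-1 genes combined large rises with high levels. Il1a was at 1544, 1543 and 1432 CPM in WT 3 h, against 9.25, 9.16 and 9.01 CPM in WT 0 h, a log2 fold change of 7.36 (SE 0.08). Il1b was at 1947, 1946 and 1720.0 CPM in WT 3 h, against 46.6, 51.5 and 41.1 CPM in WT 0 h, a log2 fold change of 5.33 (SE 0.08). The gene of their antagonist, Il1rn, was abundant already without LPS (1456 CPM in WT 3 h and 722 CPM in WT 0 h) and rose by 1.01 log2 units (SE 0.06). Il6, the fever and acute phase cytokine, was at 54.03, 57.2 and 47.9 CPM in WT 3 h, against 0.388, 0.352 and 0.180 CPM in WT 0 h, a log2 fold change of 7.41 (SE 0.22) with no overlap. The type I interferon gene Ifnb1 was at 44.9, 46.7 and 56.7 CPM in WT 3 h, against 0, 0.117 and 0.180 CPM in WT 0 h. It rose by 8.83 log2 units (SE 0.26) (edgeR adjusted p = 1.33e-12), from 5 counts over the 3 WT 0 h libraries, and by 9.50 without replicate 3 of WT 0 h.

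Subunits of the interleukin-12 family were induced unequally. Il12b, the subunit shared by interleukin-12 and interleukin-23, was at 45.6, 47.7 and 42.5 CPM in WT 3 h, against 0.517, 0.822 and 0.781 CPM in WT 0 h, a rise of 5.98 log2 units (SE 0.15). Il23a rose by 7.51 log2 units (SE 0.33) to 16.1 CPM in WT 3 h, while Il12a was at 1.85 CPM in WT 3 h and 0.142 CPM in WT 0 h, a rise of 3.63 (SE 0.52). Il27 rose by 3.86 log2 units (SE 0.15), and Ebi3, which shares 23.4% of its exon bases with Gm16712, by 0.61 (SE 0.08). Il10, the anti-inflammatory cytokine, was at 82.6, 81.5 and 100.4 CPM in WT 3 h, against 8.15, 8.04 and 5.83 CPM in WT 0 h, a rise of 3.59 log2 units (SE 0.16), and Osm, of the interleukin-6 family, rose by 2.45 (SE 0.14). Lif, of the same family, was at 8.96, 6.83 and 8.29 CPM in WT 3 h, against 0, 0 and 0.300 CPM in WT 0 h. It rose by 6.21 log2 units (SE 0.48), and by 10.15 without replicate 3 of WT 0 h, which held all 5 of its WT 0 h counts. With no WT 0 h count left, the size of that second value depends on the prior count of the fit. Il16, a T cell attractant, fell by 0.73 log2 units (SE 0.09).

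TNF family ligands fell into induced genes and genes that did not pass the test, with 6 of 13 higher and none lower (median 0.14), while 6 were higher and 2 lower with scaling by library size only. Tnf was at 3275, 3227 and 3141 CPM in WT 3 h, against 36.02, 34.9 and 32.1 CPM in WT 0 h, a log2 fold change of 6.55 (SE 0.06) (edgeR adjusted p = 2.05e-17). Tnfsf9, the 4-1BB ligand, was at 719, 725 and 702 CPM in WT 3 h, against 3.88, 3.58 and 3.12 CPM in WT 0 h, a rise of 7.66 log2 units (SE 0.10) that exceeded that of Tnf. Tnfsf4, the OX40 ligand, rose by 3.95 log2 units (SE 0.11) and Tnfsf15 by 3.83 (SE 0.14). Tnfsf13b, the gene of the B cell survival factor BAFF, was not called, with a log2 fold change of -0.12.

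Chemokine genes rose in 15 of 25 members and fell in none (median 0.64). Cxcl1 and Cxcl2, which attract neutrophils, had the largest folds of the list. Cxcl1 was at 301, 295 and 314 CPM in WT 3 h, against 0.0647, 0.587 and 0.841 CPM in WT 0 h, a log2 fold change of 9.20 (SE 0.19). Cxcl2 was at 1714, 1716 and 1789.8 CPM in WT 3 h, against 4.46, 4.81 and 5.89 CPM in WT 0 h, a rise of 8.42 log2 units (SE 0.09). Both share the same 11 capital letters in the promoters printed above. Cxcl3 and Cxcl5, of the same group of attractants, had log2 fold changes of 4.71 (SE 0.22) and -0.64 (SE 0.56), and Cxcl5 was not called. Ccl3 and Ccl4, attractants of monocytes and T cells, rose by 4.87 log2 units (SE 0.08) and 4.85 (SE 0.09). The monocyte attractants Ccl2 and Ccl7 rose by 2.85 log2 units (SE 0.09) and 2.51 (SE 0.09), and Ccl2 was at 1513 CPM in WT 3 h and 209 CPM in WT 0 h. Cxcl10, an interferon-induced T cell attractant, rose by 3.24 log2 units (SE 0.11), whereas Cxcl9, known as a target of interferon-γ, was not called (40.5, 37.6 and 41.2 CPM in WT 3 h, against 43.8, 45.98 and 29.7 CPM in WT 0 h). Ccl5 was abundant in both groups and not called, at 1433, 1427 and 1495 CPM in WT 3 h, against 1224, 1337 and 975 CPM in WT 0 h, although all values of WT 3 h were above those of WT 0 h. Without replicate 2 of WT 0 h it was called, with a log2 fold change of 0.40. Ccl9 was at 3278 CPM in WT 3 h and 2101 CPM in WT 0 h and rose by 0.64 log2 units (SE 0.05).

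Receptors for cytokines changed less than the ligands. Of 53 tested, 21 rose and 6 fell (median 0.18), while 14 were higher and 17 lower with scaling by library size only. Cd40, the receptor for T cell help, was at 344, 366 and 359 CPM in WT 3 h, against 50.6, 51.4 and 42.8 CPM in WT 0 h, a rise of 2.88 log2 units (SE 0.09). Il15ra, Tnfrsf1b and Il10ra rose by 1.14 log2 units (SE 0.08), 1.08 (SE 0.06) and 0.999 (SE 0.06). The receptor genes of interleukin-6 and interleukin-4 fell, Il6ra and Il4ra having log2 fold changes of -0.41 (SE 0.09) and -0.57 (SE 0.05). Il4ra was at 328, 327 and 314 CPM in WT 3 h, against 471, 477 and 489.9 CPM in WT 0 h. Csf1r, the receptor for the macrophage growth factor, was not called (log2 fold change 0.05).

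G protein-coupled receptors split in both directions, with 23 of 60 higher and 12 lower (median 0.14), while 20 were higher and 23 lower with scaling by library size only. Ccrl2, a binding protein for chemerin, was at 909, 904 and 895 CPM in WT 3 h, against 29.9, 28.7 and 22.6 CPM in WT 0 h, a rise of 5.06 log2 units (SE 0.10). The adenosine receptor genes Adora2a and Adora2b, which raise cyclic AMP, rose by 4.10 log2 units (SE 0.12) and 3.77 (SE 0.14), and Ptger4, a prostaglandin E2 receptor of the same coupling, by 2.01 (SE 0.06). Gpr84 and Hcar2, receptors for fatty acids and for hydroxybutyrate, rose by 2.63 log2 units (SE 0.12) and 2.94 (SE 0.14). Cxcr4, a homing receptor, was at 18.1, 19.00 and 19.7 CPM in WT 3 h, against 48.2, 46.7 and 59.2 CPM in WT 0 h, a log2 fold change of -1.44 (SE 0.10) with no overlap. Cx3cr1, the fractalkine receptor, fell by 0.78 log2 units (SE 0.08).

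**Figure D2:**
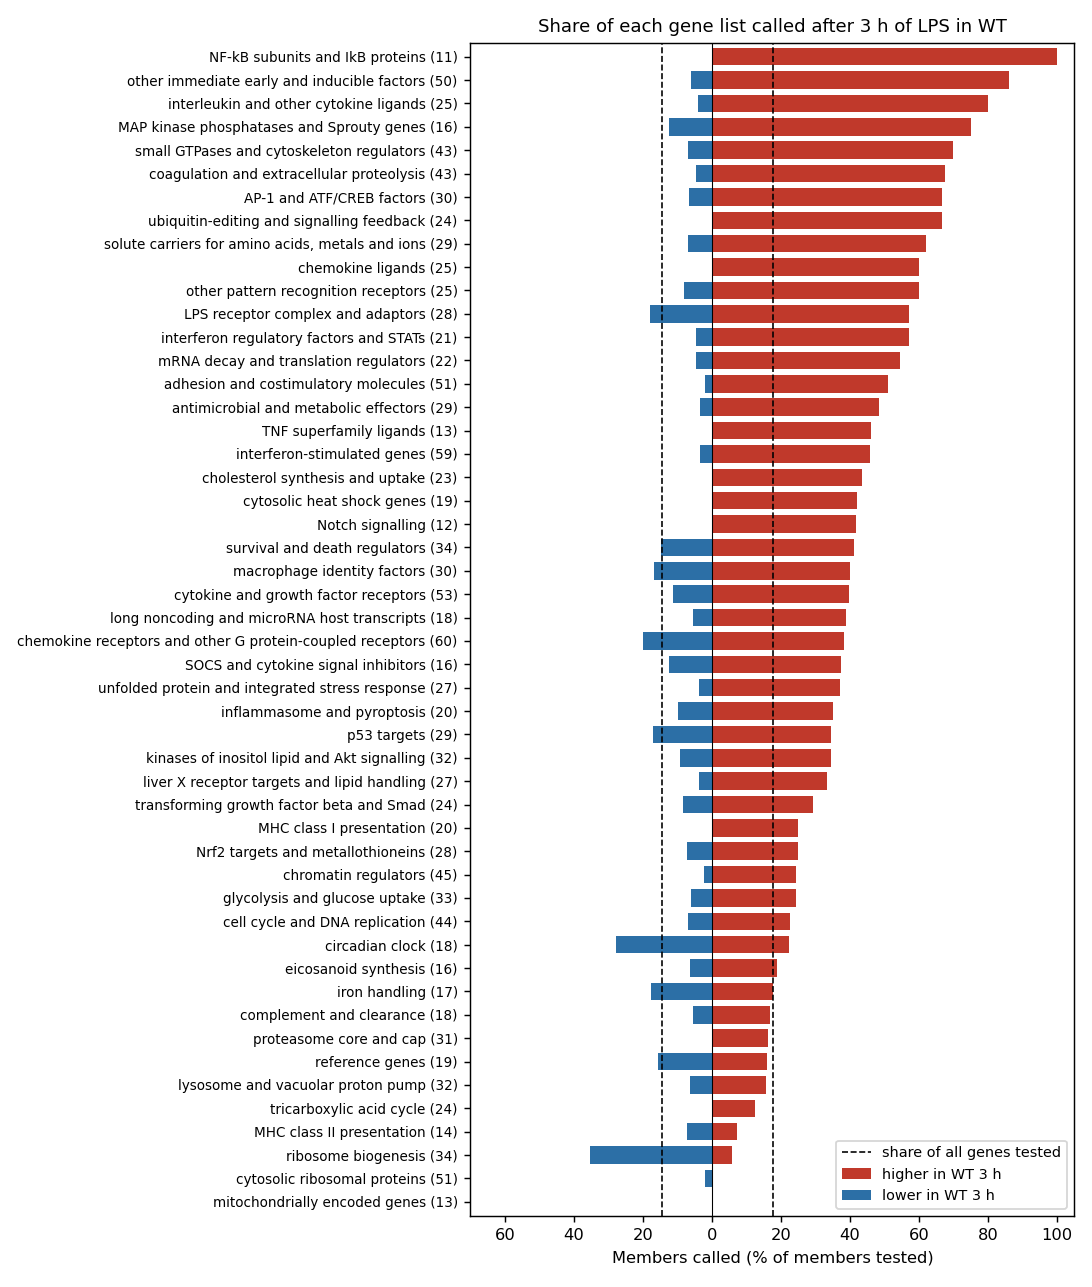
Share of the tested members of each gene list called higher (right of 0) and lower (left of 0) in WT 3 h over WT 0 h, in percent, with the number tested in brackets. Dashed lines mark the 17.8% higher and 14.6% lower of all genes tested, and the NF-kB list reaches 11 of 11 higher while mitochondrially encoded genes have 0 called.

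Interferon regulatory factors and STATs rose in 12 of 21 members and fell in 1 (median 0.21), while 6 were higher and 6 lower with scaling by library size only. The higher count was 6 or 7 without replicate 1 or 3 of WT 3 h or replicate 1 or 2 of WT 0 h. Irf4 rose most, by 3.85 log2 units (SE 0.12), and was at 35.98 CPM in WT 3 h and 2.49 CPM in WT 0 h. Irf1 was at 1235, 1245 and 1219.9 CPM in WT 3 h, against 368, 375 and 347 CPM in WT 0 h, a rise of 1.76 log2 units (SE 0.06). Irf7, a hallmark interferon target, was not called, at 2059.8, 2022 and 2020.3 CPM in WT 3 h, against 2052, 2034 and 1787 CPM in WT 0 h. Stat2, which carries the interferon signal to DNA, was at 460.2, 455 and 429.5 CPM in WT 3 h, against 592, 602 and 612 CPM in WT 0 h, a log2 fold change of -0.43 (SE 0.05) (edgeR adjusted p = 1.32e-05).

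Interferon-stimulated genes were already high without LPS, while Ifnb1 was induced. Of 59 tested, 27 rose and 2 fell with a median of 0.16, while 12 were higher and 18 lower with scaling by library size only. Ifit2 was not called, at 2372, 2352 and 2204 CPM in WT 3 h, against 2206, 2219.9 and 2017 CPM in WT 0 h. Ifit3 and Mx1 were not called either, with log2 fold changes of -0.07 and -0.13, but both were called lower, at -0.17 and -0.18, without replicate 3 of WT 0 h. Rsad2, the gene of the antiviral protein viperin, was at 2491 CPM in WT 3 h and 1001 CPM in WT 0 h, a rise of 1.31 log2 units (SE 0.05). Gbp5 rose by 1.87 log2 units (SE 0.08), Oasl1 by 1.44 (SE 0.08), Ifit1 by 0.88 (SE 0.06), Isg15 by 0.61 (SE 0.09) and Cmpk2 by 0.69 (SE 0.05). Ifi205 rose by 2.04 log2 units (SE 0.10), but it belongs to a cluster of near-identical copies, between which counts may be split.

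Among 29 antimicrobial and metabolic effectors 14 rose and 1 fell (median 0.35), while 11 were higher and 9 lower with scaling by library size only. Acod1, the itaconate synthase gene, had the largest gain in CPM of all genes, at 4119, 4092 and 3979 CPM in WT 3 h, against 511, 494 and 414 CPM in WT 0 h, a log2 fold change of 3.10 (SE 0.07). Ptx3, a soluble pattern recognition protein, rose by 6.43 log2 units (SE 0.29), Ch25h, which makes 25-hydroxycholesterol, by 3.30 (SE 0.23), and Sod2, the mitochondrial superoxide dismutase, by 1.47 (SE 0.07). Nos2, the inducible nitric oxide synthase, was still low, at 23.8, 20.3 and 16.5 CPM in WT 3 h, against 8.66, 7.05 and 8.71 CPM in WT 0 h, a rise of 1.31 log2 units (SE 0.14). Saa3 was abundant in both groups and not called, with 1867 CPM in WT 3 h and 1562 CPM in WT 0 h, and Arg1 was not called at 2.51 CPM in WT 3 h and 2.39 CPM in WT 0 h.

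Of 16 genes of eicosanoid synthesis, 3 rose and 1 fell (median 0.04), while 2 were higher and 7 lower with scaling by library size only. Under TMM 18.8% rose, close to the 17.8% of all genes tested. The 3 risers encode enzymes of the route to prostaglandin E2. They are Ptgs2, the inducible cyclooxygenase, Ptges, the terminal synthase, and Pla2g4a, the phospholipase that frees arachidonate. Ptgs2 was at 1357, 1347 and 1282 CPM in WT 3 h, against 8.34, 6.69 and 8.23 CPM in WT 0 h, a rise of 7.42 log2 units (SE 0.11). Ptges rose by 3.12 log2 units (SE 0.12), and Pla2g4a by 0.35 (SE 0.07), a call that was lost with library size only. Ptgs1, the constitutive cyclooxygenase, and the leukotriene genes Alox5 and Alox5ap were not called, with log2 fold changes of -0.33, 0.42 and -0.04. Without replicate 1 of WT 3 h, Ptgs1 and Alox5 were called, at -0.44 and 0.77.

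Coagulation and extracellular proteolysis genes rose in 29 of 43 members and fell in 2 (median 0.51), while 22 were higher and 7 lower with scaling by library size only. F3, tissue factor, which starts coagulation, was at 24.3, 23.8 and 24.5 CPM in WT 3 h, against 0.259, 0.176 and 0.601 CPM in WT 0 h, a rise of 6.10 log2 units (SE 0.24), and of 6.77 without replicate 3 of WT 0 h. Serpinb2, an inhibitor of plasminogen activators, rose by 4.69 log2 units (SE 0.13), and the activator genes Plat and Plau by 5.47 (SE 0.31) and 0.88 (SE 0.05). Thbd, thrombomodulin, which turns thrombin into an anticoagulant, was at 1.82, 2.77 and 2.69 CPM in WT 3 h, against 11.9, 13.4 and 12.9 CPM in WT 0 h. It fell by 2.39 log2 units (SE 0.17) (edgeR adjusted p = 3.61e-08), so an initiator rose and a surface anticoagulant fell with no overlap in either. Edn1, the vasoconstrictor endothelin-1, rose by 6.73 log2 units (SE 0.22). Tfpi, the tissue factor pathway inhibitor, was not called, with a log2 fold change of -0.05.

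Adhesion and costimulatory genes rose in 26 of 51 members and fell in 1 (median 0.20), while 18 were higher and 13 lower with scaling by library size only. Sele, E-selectin, had 2 counts over WT 0 h, and its ratio was 197 with a counting interval of 54.3 to 1635. Cd83, a maturation marker of antigen-presenting cells, rose by 4.72 log2 units (SE 0.10), Icam1 by 2.18 (SE 0.05) and Itga5, the fibronectin receptor subunit, by 1.91 (SE 0.05). Icam1 was at 690.3, 688 and 655 CPM in WT 3 h, against 152, 152 and 144 CPM in WT 0 h. The costimulator gene Cd80 rose by 0.76 log2 units (SE 0.14). Genes of antigen presentation were mostly not called. Of 14 class II genes, 1 was higher and 1 lower, while 1 was higher and 7 lower with scaling by library size only. The one that fell was Ciita, the class II transactivator, with a log2 fold change of -0.42 (SE 0.11). Of 20 class I genes 5 rose, while 3 were higher and 12 lower with scaling by library size only. Under TMM 25% rose, against 17.8% of all genes tested. H2-Q7 rose most of the class I genes, by 1.47 log2 units (SE 0.12), although H2-Q6 and H2-Q7 are near-identical copies whose counts may be split.

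Survival genes moved in both directions, 14 of 34 higher and 5 lower (median 0.16), while 13 were higher and 11 lower with scaling by library size only. Cflar, the caspase-8 inhibitor c-FLIP, was at 1324 CPM in WT 3 h and 279 CPM in WT 0 h, a rise of 2.25 log2 units (SE 0.08), and Mcl1 rose by 0.88 (SE 0.06). The Bcl2a1 genes rose too, Bcl2a1d by 2.66 log2 units (SE 0.11), but their copies are nearly identical and the counts may be shared. Pmaip1 and Bcl2l11, which promote death, rose by 2.35 log2 units (SE 0.09) and 1.87 (SE 0.08). Bmf, another gene of this kind, was at 2.19, 1.74 and 1.79 CPM in WT 3 h, against 13.1, 12.3 and 14.8 CPM in WT 0 h, a log2 fold change of -2.81 (SE 0.15) (edgeR adjusted p = 9.81e-10).

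Regulators of the cytoskeleton and small GTPases were widely induced, with 30 of 43 higher and 3 lower (median 0.71), while 25 were higher and 12 lower with scaling by library size only. Gem, a GTP-binding protein that inhibits calcium channels, was at 93.01, 96.98 and 93.6 CPM in WT 3 h, against 0.647, 0.587 and 0.360 CPM in WT 0 h, a rise of 7.46 log2 units (SE 0.16). Marcksl1, which binds actin and membrane lipids, was at 1696, 1683 and 1702 CPM in WT 3 h, against 109, 104 and 106 CPM in WT 0 h, a rise of 3.99 log2 units (SE 0.05), and was among the 6 of smallest scatter of the 100 largest rises. Rgs1 and Rgs16, which switch off G proteins, rose by 3.22 log2 units (SE 0.09) and 4.27 (SE 0.31). Rhov, a small GTPase gene, was at 4.45, 3.86 and 6.56 CPM in WT 3 h, against 20.5, 21.8 and 21.7 CPM in WT 0 h, a log2 fold change of -2.09 (SE 0.16).

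Lipid and nutrient genes showed selective rises. Of 23 cholesterol genes 10 rose and none fell (median 0.21), while 6 were higher and 4 lower with scaling by library size only. Insig1, which restrains cholesterol synthesis, rose by 1.43 log2 units (SE 0.06). Solute carriers rose in 18 of 29 members and fell in 2, while 12 were higher and 8 lower with scaling by library size only. The cystine transporter gene Slc7a11 was at 121, 112 and 111 CPM in WT 3 h, against 10.6, 6.81 and 11.4 CPM in WT 0 h. Slc7a11 rose by 3.58 log2 units (SE 0.18), and Slc7a2, an arginine transporter gene, by 2.98 (SE 0.12). Abcg1, a cholesterol exporter, fell by 0.45 log2 units (SE 0.06). In glycolysis 8 of 33 genes rose and 2 fell, while 5 were higher and 13 lower with scaling by library size only. Under TMM 24.2% rose, against 17.8% of all genes tested. The glucose transporter gene Slc2a1, Hk2 and Hif1a rose by 0.81 log2 units (SE 0.06), 0.78 (SE 0.09) and 0.62 (SE 0.06), and Ldha was not called (-0.09).

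Stress programmes were induced in part. In each of the stress lists below a larger share rose than the 17.8% of all genes tested, under TMM scaling. In the unfolded protein and integrated stress list 10 of 27 rose and 1 fell, while 4 were higher and 11 lower with scaling by library size only. The higher count was 6 without replicate 3 of WT 3 h. Ppp1r15a, which restarts translation after stress, was at 537, 525 and 601 CPM in WT 3 h, against 21.1, 20.7 and 20.7 CPM in WT 0 h, a rise of 4.74 log2 units (SE 0.10). Of cytosolic heat shock genes 8 of 19 rose, while 4 were higher and 5 lower with scaling by library size only. Hspa1a and Hspa1b, near-identical copies that may share counts, rose by 4.20 log2 units (SE 0.12) and 4.04 (SE 0.14). Of Nrf2 targets 7 of 28 rose and 2 fell, while 5 were higher and 16 lower with scaling by library size only. Txnrd1 and Sqstm1 rose by 1.53 (SE 0.06) and 1.33 (SE 0.05), and Hmox1 was not called (log2 fold change -0.01). Among p53 targets 10 of 29 rose and 5 fell, while 10 were higher and 14 lower with scaling by library size only. Mdm2 and Cdkn1a rose by 2.06 log2 units (SE 0.05) and 2.11 (SE 0.06), and Sesn1 fell by 1.03 (SE 0.06).

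Among cell cycle and replication genes, a proliferation marker rose most. Mki67, the gene of the Ki-67 antigen, was at 380.3, 377 and 389 CPM in WT 3 h, against 80.6, 75.6 and 92.1 CPM in WT 0 h, a rise of 2.21 log2 units (SE 0.12) with no overlap (edgeR adjusted p = 1.71e-09). Of 44 cell cycle and replication genes 10 rose and 3 fell (median -0.03), while 6 were higher and 24 lower with scaling by library size only. Under TMM the higher share was 22.7%, against 17.8% of all genes tested, and 4 genes rose by at least 2-fold. Ccnb1, Cdk1, Mcm2 and Rrm2, which act in mitosis and replication, were not called (log2 fold changes -0.02, 0.05, -0.05 and -0.09). Cdkn1a, the cell cycle inhibitor p21, was at 996 CPM in WT 3 h and 231 CPM in WT 0 h.

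Factors of macrophage identity moved in both directions, 12 of 30 higher and 5 lower, while 8 were higher and 15 lower with scaling by library size only. Tfec, a factor of the macrophage lineage, rose by 1.41 log2 units (SE 0.07) and Zeb2, which maintains tissue macrophage identity, by 0.77 (SE 0.08). Spi1, the gene of the lineage factor PU.1, was not called (log2 fold change 0.18). Among chromatin regulators 11 of 45 rose and 1 fell, while 4 were higher and 11 lower with scaling by library size only. Under TMM 24.4% rose, against 17.8% of all genes tested. The higher count was 6 or 7 without replicate 1 or 3 of WT 3 h or replicate 1 or 2 of WT 0 h, and 20 without replicate 3 of WT 0 h. Kdm6b, a demethylase that opposes Polycomb marks, was at 334, 313 and 406 CPM in WT 3 h, against 9.18, 10.2 and 21.7 CPM in WT 0 h, a rise of 4.67 log2 units (SE 0.29). Cbx8, a Polycomb protein gene, fell by 1.55 log2 units (SE 0.29). Of Notch pathway genes 5 of 12 rose and none fell, led by the ligand gene Jag1 with 2.45 log2 units (SE 0.11). Of clock genes 4 of 18 rose and 5 fell, while 2 were higher and 7 lower with scaling by library size only. Under TMM 22.2% rose and 27.8% fell, against 17.8% and 14.6% of all genes tested. Without replicate 2 of WT 3 h, 2 rose and 3 fell. Nfil3 rose by 1.41 (SE 0.13), and Cry2 had a log2 fold change of -0.66 (SE 0.15). Irs2, an adaptor of insulin signalling, rose by 2.76 log2 units (SE 0.18). C5ar1, the receptor for the complement fragment C5a, rose by 1.41 (SE 0.06), while the C1q genes C1qa, C1qb and C1qc were not called, with log2 fold changes of -0.08, 0.05 and -0.03.

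How many genes of the basic machinery were called depended on the scaling. Of 51 cytosolic ribosomal protein genes none rose and 1 fell, while 0 were higher and 23 lower with scaling by library size only. Of 13 mitochondrially encoded genes none was called, while none were higher and 2 lower with scaling by library size only. Lysosome genes rose in 5 of 32 and fell in 2, while 0 were higher and 22 lower with scaling by library size only. Under TMM 15.6% rose, near the 17.8% of all genes tested. Of 34 ribosome biogenesis genes 12 fell and 2 rose (median -0.12), while 2 were higher and 24 lower with scaling by library size only. The lower count was 7 without replicate 2 of WT 3 h, or without replicate 1 or 2 of WT 0 h. The 2 risers were Rrs1 by 1.52 log2 units (SE 0.08) and Nop58 by 0.43 (SE 0.08), and Ppan, a processing factor, fell by 0.78 (SE 0.14). Of 19 reference genes 3 rose and 3 fell, while 0 were higher and 12 lower with scaling by library size only. Under TMM 15.8% rose and 15.8% fell, near the 17.8% and 14.6% of all genes tested. Gapdh was not called (log2 fold change 0.01), but was lower with library size only, at -0.22. Tbp, the TATA-binding protein gene, fell by 0.48 log2 units (SE 0.09).

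Among noncoding transcripts, Mir155hg, the host of the microRNA miR-155, was at 126, 121 and 137 CPM in WT 3 h, against 2.39, 1.996 and 2.88 CPM in WT 0 h, a rise of 5.72 log2 units (SE 0.13) (edgeR adjusted p = 4.72e-14). The mature strand it encodes, mmu-miR-155-5p, is shown from RefSeq (GRCm38.p6, chr16:84714143-84714165, plus strand) with the seed, bases 2 to 8, in capitals, because it is the product through which this transcript acts. The libraries measure the host transcript, not the mature strand.
mmu-miR-155-5p: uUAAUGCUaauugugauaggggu

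Mir22hg rose by 1.33 log2 units (SE 0.07) and Neat1, the scaffold of nuclear paraspeckles, by 0.91 (SE 0.07). The nuclear RNA Malat1 was not called and scattered widely, at 148, 165 and 81.4 CPM in WT 3 h, against 31.7, 29.9 and 164 CPM in WT 0 h, with replicate 3 low in WT 3 h and high in WT 0 h. Without replicate 3 of WT 0 h it was called, with a log2 fold change of 2.09.

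Several strong responders belong to none of the lists and were chosen after their values were seen. Phlda1, an early gene of growth factor signalling, was at 91.7, 88.5 and 102 CPM in WT 3 h, against 1.10, 1.94 and 1.26 CPM in WT 0 h, a rise of 6.02 log2 units (SE 0.15). Pde4b, a cyclic AMP phosphodiesterase gene, rose by 3.78 log2 units (SE 0.10), Malt1, a protease of NF-kB signalling, by 3.64 (SE 0.06), Noct, a circadian phosphatase gene, by 3.99 (SE 0.09), and Prdm1, the repressor Blimp-1, by 3.31 (SE 0.10). Tnfaip2, a TNF-induced gene with one of the 10 largest gains in CPM, was at 1708, 1709 and 1704 CPM in WT 3 h, against 188, 175 and 185 CPM in WT 0 h, a rise of 3.22 log2 units (SE 0.06).

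**Figure D3:**
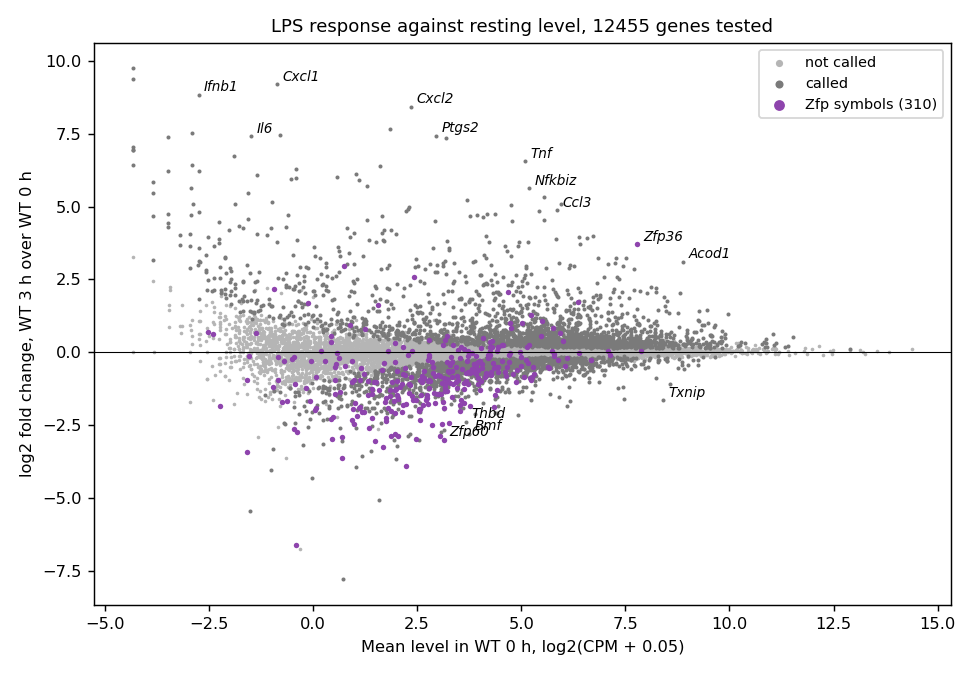
Log2 fold change of WT 3 h over WT 0 h against the mean level in WT 0 h, log2(CPM + 0.05), 1 point per gene tested, with called genes dark grey and the 310 Zfp genes in purple. Zfp genes lie mostly below 0, with 196 of 310 called lower, while the largest rises are at low resting levels. The resting level is also the denominator of the fold.

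The falling genes had another make-up. The 420 genes that fell by at least 2-fold had low levels and included 115 (27.4%) with a Zfp symbol, most of which encode zinc finger proteins. Of 310 tested Zfp genes 196 (63.2%) fell and 24 (7.74%) rose, with a median log2 fold change of -0.78, against 14.6% lower and 17.8% higher of all genes tested. Zfp60 was at 1.25, 1.09 and 0.953 CPM in WT 3 h, against 7.44, 10.8 and 8.35 CPM in WT 0 h. Its groups did not overlap, and its log2 fold change was -3.01 (SE 0.21) (edgeR adjusted p = 3.68e-08). Zfp12 was at 1.82, 1.61 and 1.23 CPM in WT 3 h, against 9.57, 7.40 and 8.41 CPM in WT 0 h, a log2 fold change of -2.45 (SE 0.17). Zfp870, Zfp157, Zfp472 and Zfp553 had log2 fold changes of -2.99 (SE 0.21), -2.86 (SE 0.22), -2.49 (SE 0.24) and -2.43 (SE 0.18). Related families went the same way, with 5 of 8 Zkscan genes, 6 of 9 Zscan genes and 19 of 38 Zbtb genes lower. Of the Zbtb genes 8 were higher, or 21.1%, against 17.8% of all genes tested. A high lower share was not particular to zinc finger families, as 9 of 16 Trmt genes and 10 of 22 Klhl genes were lower. Their median log2 fold changes were -0.28 and -0.30. Of Mrpl and Mrps genes 16 of 77 were lower, and of Ndufa, Ndufb and Ndufs genes 0 of 31. Zkscan8 fell by 2.13 log2 units (SE 0.21). Zbtb34 was at 6.74 CPM in WT 3 h and 30.3 CPM in WT 0 h, a log2 fold change of -2.17 (SE 0.13). Zfp36, named above, shares the symbol but encodes an RNA-binding protein, and was among the 24 that rose. On chromosome 7, which carries the most tested Zfp genes, 59 of 82 fell.

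Genes outside the zinc finger families fell too. Txnip, which binds thioredoxin and limits glucose uptake, was at 114, 106 and 106 CPM in WT 3 h, against 354, 341 and 326 CPM in WT 0 h. It fell by 1.65 log2 units (SE 0.06) (edgeR adjusted p = 5.18e-12), one of the 10 largest losses in CPM among called genes whose groups did not overlap. Cd300lb, an activating receptor of myeloid cells, was at 57.9 CPM in WT 3 h and 178 CPM in WT 0 h and fell by 1.62 log2 units (SE 0.06). Fbxo32, a ubiquitin ligase gene that FOXO factors drive in muscle, was at 1.82, 1.03 and 1.34 CPM in WT 3 h, against 9.18, 8.57 and 8.77 CPM in WT 0 h, a log2 fold change of -2.65 (SE 0.19). Tsc22d3, the glucocorticoid-induced gene GILZ, fell by 1.86 log2 units (SE 0.10).

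Replicates at 3 h agreed closely for the strong responders. Among the 100 largest rises of genes of at least 5 CPM in WT 3 h, the coefficient of variation of CPM in WT 3 h had a median of 4.71%, and 77 genes were under 10%. It was lowest for Tnfaip2, at 0.159%, and highest for Rgs16, Plat and Fosb, at 21.99%, 20.6% and 19.2%.

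Genes of different response sizes also differed in structure and sequence, a description with no test. The median span of genes that rose by at least 16-fold was 7.81 kb, against 22.4 kb for all genes tested, and for those that fell by at least 2-fold it was 12.3 kb. Their principal transcripts had a median of 4 exons in both classes, against 9 for all. Of transcripts with an annotated 3′ UTR, 22 of 69 (31.9%) in the class that rose by at least 16-fold held a TTATTTATT nonamer, against 861 of 11753 (7.33%) of all and 36 of 360 of those that fell by at least 2-fold. Median 3′ UTR lengths were 848 bases in the first class and 999 in all. In the class that rose by at least 4-fold, 53 of 266 (19.9%) held the nonamer.

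Promoter motifs also differed in share between the classes. A kB consensus was found in 26.1% of 46 promoters of genes that rose by at least 16-fold, in 20.4% of 181 at 4-fold or more, in 8.95% of 257 that fell by at least 2-fold and in 9.97% of 7530 tested. The AP-1 motif TGANTCA, on both strands, was in 15.2%, 12.2%, 3.50% and 4.97% of the same sets, against 7.98% of the whole RefSeq table. TATAAA 20 to 45 bases before the start was in 10.9%, 6.63%, 1.17% and 1.26%. The ETS motif CCGGAAGT was in none of the 46, in 1.66% of the 181, in 11.3% of the fallers and in 8.99% of all tested. Counts are small in the first set, where the kB share stands for 12 promoters. A match describes letters, not binding.

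**Figure D4:**
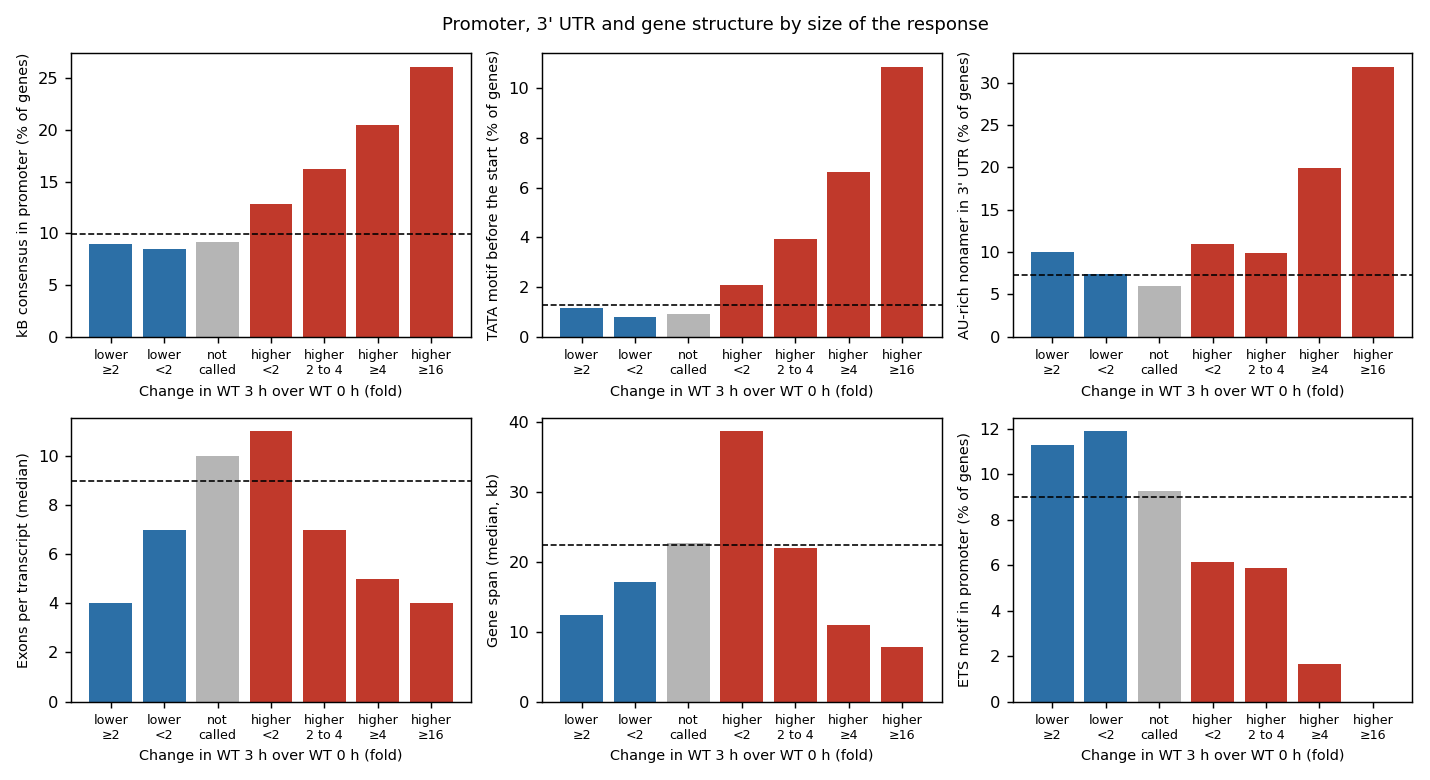
Share of genes with a kB consensus, a TATA motif or an ETS motif in the promoter and an AU-rich nonamer in the 3′ UTR (percent), with the median number of exons and gene span (kb), by size and direction of the change in WT 3 h over WT 0 h. Dashed lines give all genes tested, the class of at least 4-fold includes that of at least 16-fold, and the nonamer share reaches 31.9% in the last class.

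Resting levels differed by class too. In WT 0 h, 45 of the 81 genes that rose by at least 16-fold (55.6%) were under 1 CPM, against 1205 of all 12455 (9.68%). The level in WT 0 h is the denominator of the fold that defines the class. Genes low at 0 h can also pass the filter through their 3 h libraries alone. A low resting level is thus partly built into this class, and the share is a description. Folds from such levels rest on few resting counts, and for the named genes with 3 counts or fewer an interval or floor is given above.

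The WT response was set against that of the Usp5-deficient macrophages by testing the difference itself, WT minus MKO, in the same edgeR model. The response differed in 847 genes (6.8%), with a positive difference in 549 (4.41%) and a negative one in 298 (2.39%). Among the 642 genes that rose by at least 2-fold in WT, 366 (57.0%) had a positive difference, that is a larger rise in WT, and 1 a negative one. Among the 420 that fell by at least 2-fold in WT, 131 (31.2%) had a negative difference, that is a deeper fall in WT, and none a positive one. The change in WT that put genes in these classes also enters the difference, so these shares are a description. With library size only, 382 differences were positive and 829 negative, so the balance of all differences turns over with scaling. With replicate 3 left out of both 0 h groups 2535 genes differed, and with replicates 1 and 2 added together 294 did.

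**Figure D5:**
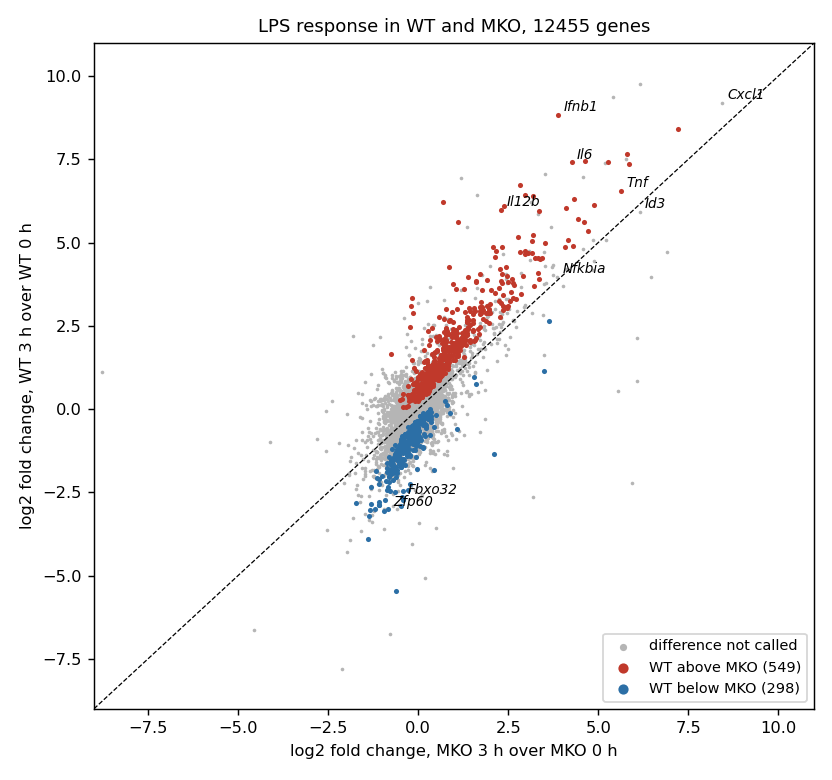
Log2 fold change of WT 3 h over WT 0 h (vertical) against that of MKO 3 h over MKO 0 h (horizontal), 1 point per gene, with called differences in red (549, WT above MKO) and blue (298, WT below MKO) and a dashed line of equal response. Red points lie mostly above 0 and above the line, and blue ones mostly below 0 and below the line.

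Among genes of at least 5 CPM the largest positive difference was that of Ifnb1, at 4.94 (SE 1.12) with an edgeR adjusted p of 0.0142. Without replicate 1 of MKO 0 h it was 4.18 and not called (edgeR adjusted p = 0.171), and without replicate 3 of WT 0 h it was 5.60. Its log2 fold change was 8.83 (SE 0.26) in WT and 3.89 (SE 0.47) in MKO, and its level was 1.38 CPM in MKO 3 h and 0.0935 CPM in MKO 0 h. Il6 rose by 7.41 log2 units (SE 0.22) in WT and 4.26 (SE 0.26) in MKO, a difference of 3.15 (SE 0.54). Il12b rose by 5.98 log2 units (SE 0.15) in WT and 2.31 (SE 0.19) in MKO, a difference of 3.67 (SE 0.32). Cxcl1 had a log2 fold change of 9.20 (SE 0.19) in WT and 8.43 (SE 0.18) in MKO, and its difference of 0.77 (SE 0.42) was not called (edgeR adjusted p = 0.375). Tnf had a log2 fold change of 5.63 (SE 0.06) in MKO, a difference of 0.92 (SE 0.08) that was called. F3 had a difference of 3.72 (SE 0.35), and of 4.38 without replicate 3 of WT 0 h, and without LPS it was at 0.345 CPM in WT 0 h and 2.22 CPM in MKO 0 h.

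By list, 8 of the 11 NF-kB and IkB genes, 13 of the 20 cytokine genes that rose and 9 of the 12 phosphatase and Sprouty genes that rose had a larger rise in WT. Most of these risers rose by at least 2-fold in WT (10 of 11, 18 of 20 and 10 of 12), and of all genes that did so 57.0% had a larger rise in WT, a share against which the lists were not tested. Of the 43 immediate early and inducible genes that rose, 31 of them by at least 2-fold, 18 had a larger rise in WT. Of the 27 interferon-stimulated genes that rose, 4 of them by at least 2-fold, 11 did. Among all genes that rose, the share was 24.5%. Of the 310 Zfp genes 50 had a negative difference and 6 a positive one, and their median log2 fold change was -0.78 in WT and -0.34 in MKO. Fbxo32 had a log2 fold change of -2.65 (SE 0.19) in WT and of -0.44 (SE 0.13) in MKO, a difference of -2.22 (SE 0.24). Zfp60 had a log2 fold change of -3.01 (SE 0.21) in WT and of -0.85 (SE 0.16) in MKO, a difference of -2.16 (SE 0.27).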

How the data were processed

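Total RNA from TRIzol lysates was sequenced on an Illumina platform, per the labels' protocols. Reads were trimmed with fastp and the mouse build is mm10, per the submitters' processing notes. How reads were aligned and counted, and whether strand was used, is not given in the labels or notes. The authors deposited 1 table of 48709 genes with raw counts per gene and TPM values for each of the 12 libraries, per the file headers. TPM was used only to compare levels between genes.

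Genes were filtered with filterByExpr (12455 tested) and counts were fitted in edgeR 4.0.16 (R 4.3.3, limma 3.58.1) with TMM scaling and a mean for each of the 4 groups over all 12 libraries. A gene low at 0 h can pass this filter through its 3 h libraries alone, and list counts cover tested members only. The quasi-likelihood test of WT 3 h minus WT 0 h, and of that difference in WT minus that in MKO, was adjusted by Benjamini-Hochberg over all genes tested and called at 0.05 with no fold minimum. Standard errors are the absolute log2 fold change over the square root of F. Per-library values are CPM on TMM-scaled library sizes, and ± is the SD of 3 libraries. Fitted folds of genes with few counts depend on the prior count; Csf3, Csf2 and Sele have a floor of 3 counts over the group or an exact 95% counting interval, which cover counting error only.

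The gene lists and the comparisons were chosen with earlier results of these data known. Genes were named if they were among the 15 largest rises or falls of at least 5 CPM with no overlap, the 10 largest gains or losses in CPM, the 4 smallest p-values of a list, its key members, or the 10 largest differences between WT and MKO on each side. Of these, Abca1, Ccr2, Cd86, Foxo3, Hspa8, Pfkfb3 and Top2a, whose calls moved with 1 or more alternatives, are given no values, and a few other items are not reported here. Bcl2a1d, Ccnb1, Cdk1, Cxcl5, Cxcl9, Cyld, Dusp6, Dusp8, Fosb, Ier5l, Klf6, Malt1, Noct, Otulin, Pde4b, Phlda1, Ppan, Prdm1, Rbck1, Rnf31, Sharpin, Tab1, Tfpi, Tirap and Tlr5 were chosen after their values were seen.

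Gene models were taken from GENCODE M21 (GRCm38), and promoter and microRNA sequences from RefSeq tables of GRCm38.p6. The test was checked on simulated counts. The alternatives tried were scaling by library size only or by RLE, DESeq2 1.42.0, other filters, a 2-fold minimum, the replicate number as a block, the 6 WT libraries only, replicates 1 and 2 summed, and each library left out.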

Additional observations from a re-analysis of the deposited data

Results flagged for a closer look

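The size of the LPS response differed between WT and MKO macrophages in 847 genes by the edgeR test of the difference. Among genes of at least 5 CPM, the largest positive differences (WT minus MKO, log2) included those of Ifnb1 (4.94), Edn1 (3.91), F3 (3.72), Il12b (3.67), Plagl1 (3.51), Ptx3 (3.46), Gfi1 (3.43), Il6 (3.15) and Gem (2.82). The difference of Ifnb1 was not called without replicate 1 of MKO 0 h (4.18, edgeR adjusted p = 0.171). Plagl1 and Gfi1, which encode zinc finger factors, had log2 fold changes of 3.33 (SE 0.24) and 4.28 (SE 0.34) in WT, against -0.18 (SE 0.30) and 0.84 (SE 0.32) in MKO. Edn1 was at 24.5 CPM in WT 3 h and 0.221 CPM in WT 0 h, and in the knockout at 3.56 CPM in MKO 3 h and 0.497 CPM in MKO 0 h. Ptx3 was at 7.66 CPM in WT 3 h and 0.0827 CPM in WT 0 h. In the knockout Ptx3 was at 10.4 CPM in MKO 3 h and 1.31 CPM in MKO 0 h. Its larger fold in WT thus came with a lower level in WT 0 h, and its level after LPS was not higher in WT.

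The largest negative differences were those of Fbxo32 (-2.22), Zfp60 (-2.16), Zfp472 (-1.85), Zfp870 (-1.78), Zfp202 (-1.76), Zfp12 (-1.67), Zfp553 (-1.57), Zfp157 (-1.54), Zkscan8 (-1.44) and Zfp113 (-1.44), with 8 Zfp genes among the 10. Zfp202 had a log2 fold change of -1.79 (SE 0.17) in WT, against -0.03 (SE 0.15) in MKO, and Zfp113 of -2.04 (SE 0.27) in WT, against -0.60 (SE 0.22) in MKO. The call of Zfp113 was lost without any 1 library of WT 3 h, without replicate 2 or 3 of MKO 3 h, with the replicate number as a block and with replicates 1 and 2 summed (edgeR adjusted p of 0.0526 to 0.0826). That of Zkscan8 was lost with replicates 1 and 2 summed (edgeR adjusted p = 0.0572). The sums of the macrophage markers were 11555 to 11875 CPM in WT 3 h and 10427 to 10841 CPM in WT 0 h, and 8656 to 8918 CPM in MKO 3 h and 8054 to 8147 CPM in MKO 0 h, and the part of that gap in these differences was not tested.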

How the results depend on the processing

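Scaling by library size only called 6417 genes, 1208 higher and 5209 lower. A 2-fold minimum called 1062, 642 higher and 420 lower. With replicates 1 and 2 of each group summed, 2585 were called, 1432 higher and 1153 lower. Leaving out 1 library at a time gave 3340 to 4436 called, 1839 to 2542 higher and 1467 to 1894 lower. DESeq2 called 2167 higher and 1721 lower, which include 94.9% of the genes called higher and 92.1% of those called lower. The difference between WT and MKO was called in 248 genes with a 2-fold minimum, in 294 with replicates 1 and 2 summed, in 2535 with replicate 3 left out of both 0 h groups, and in 603 to 1132 when 1 library was left out. Same-numbered samples correlated by 0.0777, -0.0321 and 0.0720 after removal of group means, so the numbers were not taken to pair them; with the replicate number as a block 3734 genes were called, and 614 differed between WT and MKO.

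Of 40 genes in the text with no call under TMM, 29 were called under at least 1 alternative. With library size only 23 were called, all of them lower, and 6 of these changed sign: Casp1 (-0.18), Csf1r (-0.17), Gapdh (-0.22), Gsdmd (-0.17), Ifit2 (-0.12) and Irf7 (-0.17) on the log2 scale. Myd88 and Pla2g4a lost their calls under that scaling. Abca1, Ccr2, Cd86, Foxo3, Hspa8, Pfkfb3 and Top2a, called under TMM, lost their calls under at least 1 alternative and are not described, and with library size only Hspa8 turned to -0.053 log2 units. The 2-fold minimum, which by its rule ends every call of less than 2-fold, was left out of this check of named genes. Under the other alternatives run, no other rise or fall of a named gene lost its call or turned. Library size only moved 68 of 122 list counts by over 1.5 times, RLE scaling moved 2, and leaving out 1 library moved 13 to 17, most of them counts of 4 or fewer. Leaving replicate 3 out of both 0 h groups moved 43, and summing replicates 1 and 2 moved 31. The cause of these moves was not tested, except that summing or leaving out libraries uses fewer samples. Depth limits genes of a few counts, where folds rest on counting intervals.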
